A study of Mus musculus with 48 samples.

Results

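The 10 genes described here are markers of the 2 other secretory lineages of the gut epithelium, read in libraries of sorted enteroendocrine cells. They are 5 Paneth cell genes (Lyz1, Defa17, Defa24, Mmp7 and Ang4) and 5 goblet cell genes (Muc2, Tff3, Clca1, Fcgbp and Zg16), chosen by name from 53465 genes in the count table. All 10 had counts high enough to be tested, as did 15126 genes in all. The cells were NeuroD1-positive: in Neurod1-cre-eYFP mice on a C57BL6 background, a cell whose lineage has switched on Neurod1 carries the yellow reporter, and the authors collected EYFP-positive, CD45-negative cells by FACS. All mice were lean chow-fed males, about 20 weeks old at surgery, that received a liquid diet around surgery. The VSG mice had about 70% of the stomach removed by vertical sleeve gastrectomy. The sham ad libitum mice (S_al) had sham surgery and free feeding, and the sham weight-matched mice (S_wm) had sham surgery and were kept at the weight of the VSG group. Tissue was taken 6 weeks after surgery, after an overnight fast and about 15 min after a glucose gavage of 3 g/kg. The 48 libraries came from 17 mice and 3 regions, namely the top 5 cm of the small intestine (duodenum), its bottom 15 cm (ileum) and the combined colon and rectum (colon). Each region had 5 S_al, 5 S_wm and 6 VSG libraries.

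Paneth cells sit at the base of small intestinal crypts and release antimicrobial proteins. Goblet cells are found along the whole gut and secrete the gel-forming mucin and the other proteins of the mucus layer. Both arise, like enteroendocrine cells, from secretory progenitors of the crypt, and Paneth cells are normally rare or absent in the mouse colon. Of the Paneth genes, Lyz1 encodes lysozyme, Defa17 and Defa24 encode alpha-defensins (cryptdins), Mmp7 encodes matrilysin, the protease that activates alpha-defensins in the mouse, and Ang4 encodes a ribonuclease with antimicrobial activity. Of the goblet genes, Muc2 encodes the major gel-forming mucin, Fcgbp a large protein bound into the mucin network, Clca1 a secreted metalloprotease of mucus, Zg16 a lectin that binds bacteria and Tff3 a trefoil peptide of mucosal repair.

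The sort was read first from its own markers. Median levels of Neurod1, the factor that drives the reporter, were 669 CPM (duodenum), 385 CPM (ileum) and 244 CPM (colon), where CPM is the count relative to library size after TMM scaling. Chromogranin A (Chga) had medians of 17618, 17256 and 19905 CPM in the same order. The 5 Paneth genes together took a median of 0.0212% of all counts (duodenum), 0.194% (ileum) and 0.00147% (colon), and the 5 goblet genes 0.357%, 0.34% and 0.886%. The 12 enteroendocrine genes listed for comparison took 6.26%, 4.31% and 4.87%. Total counts per library ran from 4648651 to 17182463. In a library of many cells, fewer cells of a type and less RNA per cell cannot be told apart. Whether the reads of these 10 genes came from the sorted cells themselves or from other cells in the sort was not tested. One library stood apart in enteroendocrine genes: the duodenum library of S_wm mouse 27 summed to 12280 CPM over the 12 genes, against 39750 to 75620 CPM in the other 15 duodenum libraries. Most results that it moves are also given without it, but not those of the fits with the library index. For mouse 12 the tissue label and the sample's description code disagree, ileum standing for colon and the reverse. By tissue label, Lyz1 was at 2469 CPM in its ileum library and 1.46 CPM in its colon library, values on the side of the other ileum and colon libraries.

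The identity of the 2 alpha-defensin genes limits how their counts can be read, so their coding sequences are shown. Defa17 (chr8:21655801-21656641, plus strand, GRCm38, coding span of 2 exons) and Defa24 (chr8:21734537-21735377, plus strand) both have 282 coding bases. In the lines below, read from the reference genome with GENCODE M21 exons, capitals mark the 12 positions at which the 2 genes differ; the other 270 bases are the same (95.7% identity), and the longest run without a difference is 58 bases.
Defa17: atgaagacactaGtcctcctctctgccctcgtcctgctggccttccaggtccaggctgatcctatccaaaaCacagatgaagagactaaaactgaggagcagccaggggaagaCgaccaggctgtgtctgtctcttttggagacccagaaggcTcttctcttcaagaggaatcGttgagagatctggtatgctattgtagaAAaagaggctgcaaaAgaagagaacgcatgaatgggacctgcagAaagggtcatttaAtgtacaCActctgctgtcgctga
Defa24: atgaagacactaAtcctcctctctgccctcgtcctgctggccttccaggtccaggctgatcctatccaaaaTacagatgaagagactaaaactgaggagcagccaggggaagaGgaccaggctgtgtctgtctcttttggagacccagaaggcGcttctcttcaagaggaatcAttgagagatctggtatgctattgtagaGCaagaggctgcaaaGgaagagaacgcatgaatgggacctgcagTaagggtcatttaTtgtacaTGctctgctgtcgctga
The reads were 50 bases long. Of the 348 stretches of 50 bases in the Defa17 transcript, 320 (92%) also occur in another gene, in most cases Defa3, whose coding sequence is identical to that of Defa17 over all 282 bases. For Defa24, 104 of 370 stretches (28.1%) are shared, chiefly with Defa30. Lyz1 shares 16.1% with Lyz2, Fcgbp 6.42% and Ang4 4.7%, whereas Mmp7, Muc2, Tff3, Clca1 and Zg16 share none. How the authors treated reads with several matches is not stated in the sources used here, so the Defa17 level in particular is uncertain and its values are those of whatever part of its reads could be assigned. Mmp7 also overlaps exons of AV064505 on the opposite strand. The library kit keeps the strand, but the strand setting of the counting is not given in the sources used here.

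The Paneth genes were highest in the ileum, lower in the duodenum and near the detection limit in the colon, with Ang4 as the exception in the colon. Lyz1 ranged from 33.4 to 1486 CPM in the 16 duodenum libraries (median 108), from 398 to 4162 CPM in the 16 ileum libraries (median 1016) and from 0.246 to 21.1 CPM in the 16 colon libraries (median 1.31). No ileum library reached down to the colon range, and the duodenum range reached into the ileum range only through mouse 27. Defa24 ran from 35.6 to 1206 CPM in the duodenum (median 85.3), from 307 to 4169 CPM in the ileum (median 703.5) and from 0.21 to 21.1 CPM in the colon (median 1.32). Mmp7 had medians of 8.69, 65.1 and 0.387 CPM in the 3 regions, with 0 counts in 5 colon libraries. Defa17 was lower, with medians of 2.65 and 16.1 CPM in the duodenum and ileum and a total of 10 counts over all colon libraries, 11 of which had none. Ang4 had medians of 6.05, 73.3 and 12.3 CPM in the same order, and in the colon its lowest library was at 1.64 CPM and its highest at 127 CPM.

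**Figure D1:**
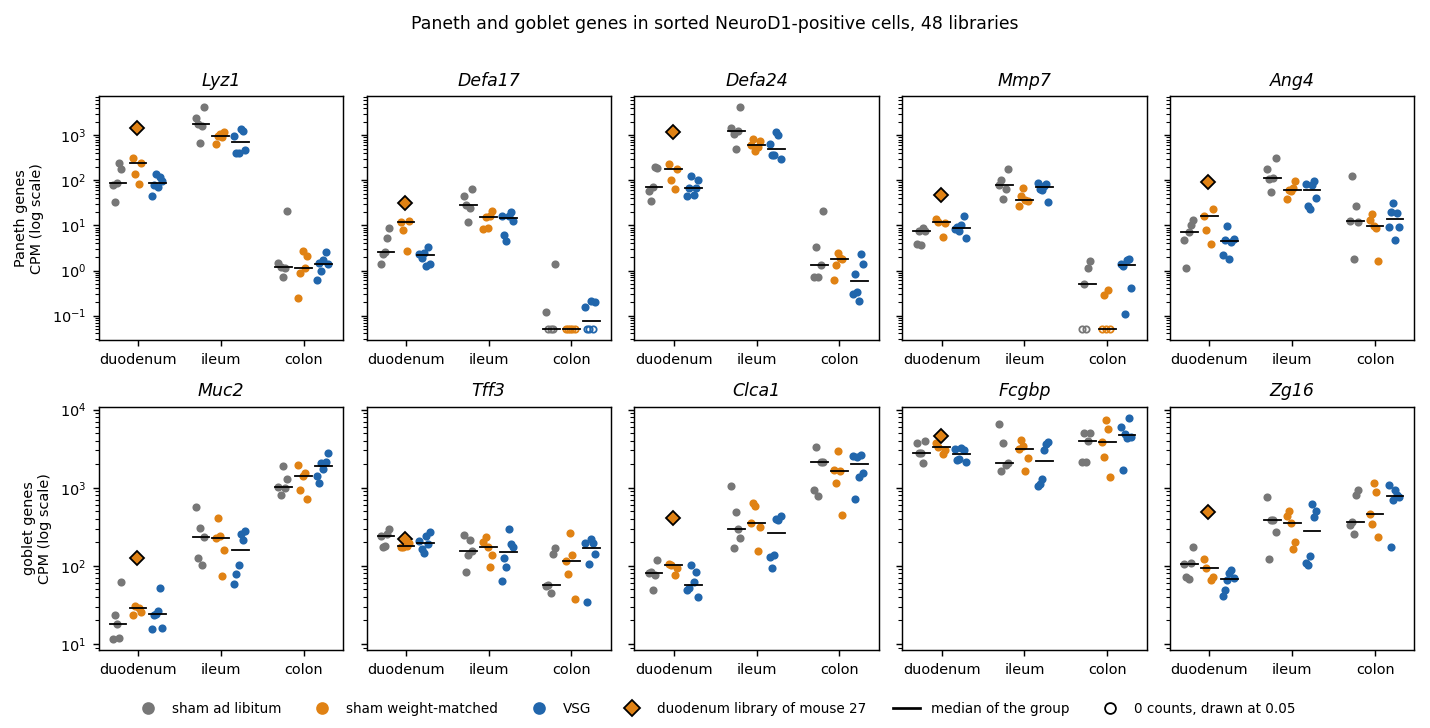
Levels of the 5 Paneth genes (top) and 5 goblet genes (bottom) in each of the 48 libraries, in CPM on a log axis, by region and surgery group. Points are libraries, black lines are group medians, open points had 0 counts and are drawn at 0.05, and the black-edged diamond is the duodenum library of mouse 27; Lyz1 there was at 1486 CPM, against at most 309 CPM in the other duodenum libraries.

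Between ileum and duodenum, averaged over the 3 surgery groups, 8 of the 10 genes rose in the ileum by edgeR's quasi-likelihood test with Benjamini-Hochberg adjustment over all genes. All 5 Paneth genes and 3 goblet genes were among them, where 17.2% of all tested genes were higher in the ileum and 16.6% lower. Ang4 rose by 3.10 ± 0.44 on the log2 scale (estimate ± SE, adjusted p = 3.59e-07), Lyz1 by 2.77 ± 0.37 (adjusted p = 1.03e-07), Mmp7 by 2.66 ± 0.25 (adjusted p = 1.47e-11), Defa24 by 2.63 ± 0.38 (adjusted p = 5.87e-07) and Defa17 by 1.91 ± 0.29 (adjusted p = 1.76e-06). Their median, 2.66, stood beside a median of 0.00451 over all tested genes. Among the goblet genes, Muc2 rose by 2.76 ± 0.31 (adjusted p = 1.33e-09), Clca1 by 1.95 ± 0.30 (adjusted p = 1.72e-06) and Zg16 by 1.71 ± 0.32 (adjusted p = 4.45e-05). Tff3 (-0.33 ± 0.23, 95% interval -0.80 to 0.14) and Fcgbp (-0.13 ± 0.22, interval -0.57 to 0.31) did not pass. Without the duodenum library of mouse 27 the same 8 genes passed, and their changes were larger, such as 3.18 for Lyz1 and 3.06 for Defa24.

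The second library index partly followed the region, and the ileum to duodenum result was recomputed with it. Of the duodenum libraries 4 carried index D501 and 12 index D502, and of the ileum libraries 7 carried D501, 8 carried D503 and 1 carried D504. With the index as a covariate, Mmp7 (1.98 ± 0.45, adjusted p = 0.00231), Muc2 (1.67 ± 0.51, adjusted p = 0.0271) and Lyz1 (2.02 ± 0.67, adjusted p = 0.0444) kept their calls, 3 of 10 genes, where 11.3% of all genes were called in that fit. Defa24 and Ang4 had an adjusted p of 0.0543 each, with changes of 1.98 and 2.16, and Defa17, Clca1 and Zg16 were at 1.12, 0.82 and 0.81. Within the D501 libraries alone, 4 duodenum (mouse 27 among them) against 7 ileum, edgeR called 0 of the 10 genes and 3.63% of all genes. All 8 differences were again positive there, from 0.91 for Zg16 to 2.91 for Ang4. Index D502 occurred only in the duodenum, so the covariate fit links the 2 regions through the D501 libraries. Neither the covariate fit nor the D501 fit was run without the library of mouse 27. The part of the index in the regional difference was not tested further.

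From duodenum to colon the 2 sets went in opposite directions. In the colon 4 of the 5 Paneth genes fell, where 28.3% of all tested genes were lower there: Lyz1 (log2 fold change -6.39 ± 0.48, adjusted p = 5.45e-15), Defa24 (-6.28 ± 0.50, adjusted p = 3.97e-14), Defa17 (-6.06 ± 0.56, adjusted p = 2.4e-12) and Mmp7 (-4.57 ± 0.39, adjusted p = 1.24e-13). The fitted value for Defa17 depends on the prior count of the fit, since 1 of its 3 colon groups had no count. Muc2 rose by 5.51 ± 0.35 (adjusted p = 1.66e-17), Clca1 by 4.22 ± 0.33 (adjusted p = 1.71e-14) and Zg16 by 2.57 ± 0.33 (adjusted p = 9.94e-09), 3 of the 5 goblet genes, where 26.8% of all genes were higher in the colon. Tff3 fell by 0.77 ± 0.23 (adjusted p = 0.00457). Fcgbp (0.46 ± 0.22, adjusted p = 0.0734) and Ang4 (0.89 ± 0.43, adjusted p = 0.0789) did not pass. For Ang4 the call rested on single libraries: without the duodenum library of mouse 27 it was 1.30 ± 0.42 higher in the colon (adjusted p = 0.00752), and it also passed without mouse 19 (adjusted p = 0.0351) or mouse 32 (adjusted p = 0.0399), while with the index as a covariate it stood at -1.15 ± 0.88. For Fcgbp the adjusted p was under the threshold without mouse 12 (0.0351), 18 (0.0421) or 31 (0.0448), and with the index as a covariate the value stood at -0.57 ± 0.47. In that fit 6 of the 10 genes passed, Tff3 and Zg16 no longer among them, where 28% of all genes were called. Of the colon libraries 1 carried D501 (mouse 12), 4 carried D503 and 11 carried D504. Duodenum and colon thus shared only index D501, so the covariate fit can hardly separate index from region in this contrast. Without the library of mouse 27 the 8 genes called from duodenum to colon passed too, with Lyz1 at -5.99 ± 0.42 and Muc2 at 5.79 ± 0.34. Other marker lists moved in the same contrast: 6 of 8 colonocyte genes rose and 1 fell (median 1.91), 10 of 10 enterocyte genes fell (median -5.19), and 9 of 12 enteroendocrine genes fell and 1 rose (median -1.46). Their part in the differences of the 10 genes was not tested.

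**Figure D2:**
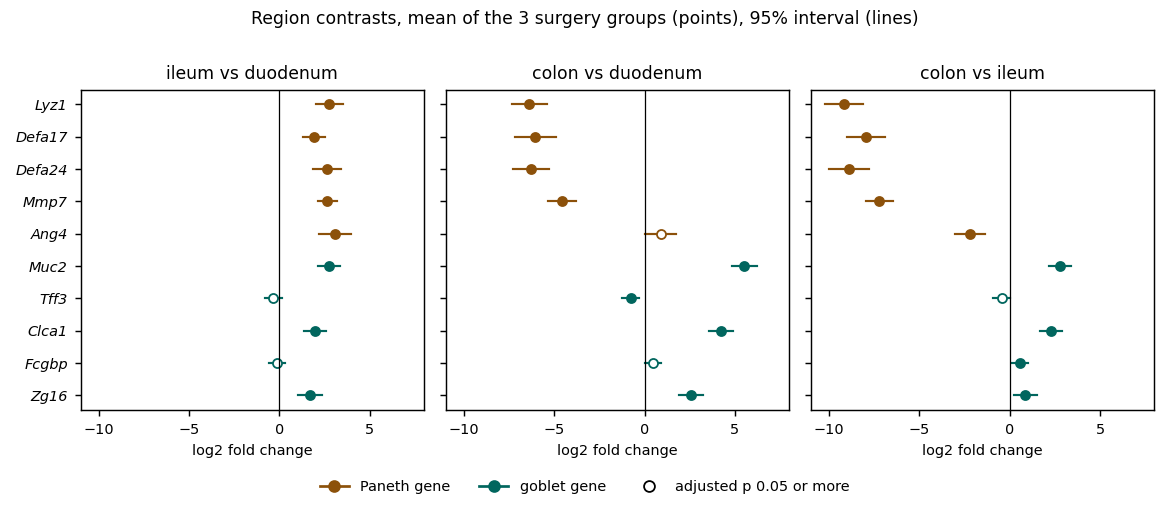
Log2 fold changes between regions for each gene, averaged over the 3 surgery groups, with 95% intervals; filled points passed an adjusted p of 0.05. Paneth genes lie right of 0 for ileum against duodenum and left of 0 in the colon except Ang4 against the duodenum (0.89), and Muc2, Clca1 and Zg16 lie right of 0 in all 3 panels.

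From ileum to colon all 5 Paneth genes fell, where 25.4% of all genes did. The log2 fold change was -9.16 ± 0.53 for Lyz1, a 573-fold lower level, -8.91 ± 0.55 for Defa24, -7.97 ± 0.52 for Defa17 (again with 1 colon group at 0), -7.23 ± 0.37 for Mmp7 and -2.21 ± 0.42 for Ang4, with adjusted p between 1.93e-20 and 2.42e-05. The Ang4 interval, -3.06 to -1.36, lay outside those of the other Paneth genes, the nearest of which ended at -6.48 for Mmp7. Of the goblet genes, 4 rose, where 23.8% of all genes did: Muc2 by 2.75 ± 0.30 (adjusted p = 3.13e-10), Clca1 by 2.28 ± 0.30 (adjusted p = 3.05e-08), Zg16 by 0.86 ± 0.31 (adjusted p = 0.02) and Fcgbp by 0.58 ± 0.22 (adjusted p = 0.0246). Tff3 was at -0.44 ± 0.23 (adjusted p = 0.115) and passed with the mouse as a random block (-0.59, adjusted p = 0.0174), with it as a fixed block (-0.53, adjusted p = 0.0435) or without mouse 27 (adjusted p = 0.0437). The Fcgbp call was lost without mouse 11, 13, 24, 27, 29 or 32 (adjusted p from 0.0563 to 0.081) with no filter on low counts (0.0727) and with the index as a covariate (0.643). The Zg16 call was lost without mouse 29 (0.0537) or 32 (0.063) and with the index as a covariate (0.14). Within the D503 libraries alone, 8 ileum against 4 colon, the 5 Paneth genes, Muc2 and Clca1 passed, 7 of 10, where 28.8% of all genes were called.

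The goblet genes followed more than 1 pattern along the gut. Muc2 ran from 11.5 to 127 CPM in the duodenum (median 23.9), from 58.7 to 570 CPM in the ileum (median 222) and from 725 to 2800 CPM in the colon (median 1412), and the colon range did not overlap the others. Clca1 had medians of 82.2, 335 and 1671 CPM and Zg16 of 77.1, 370 and 719 CPM, with overlap between ileum and colon for both. Fcgbp was above 1000 CPM in all 48 libraries, with medians of 3035, 2742 and 4386 CPM. Tff3 had medians of 191, 163 and 128 CPM. These 2 genes had the narrowest duodenum ranges, the highest library being 2.17 times the lowest for Fcgbp and 2.05 times for Tff3, against 11.1 times for Muc2 and 44.5 times for Lyz1. Without the library of mouse 27 the ratios were 1.9 for Fcgbp, 2.05 for Tff3, 5.34 for Muc2 and 9.26 for Lyz1, and that of Clca1 was 2.99.

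Levels of different genes were compared per kilobase of exon. In the duodenum Tff3 (mean 419 CPM per kb), Defa24 (417) and Fcgbp (290) led, and Muc2 (4.56) was last of the 10. The order of Defa24 and Fcgbp there did not hold library by library, since Defa24 was above Fcgbp in only 7 of 16, its mean being raised by mouse 27. In the ileum Defa24 (2327) and Lyz1 (1005) led, in that order in 16 of 16 libraries, and Zg16 (274) and Fcgbp (266) could not be ordered (Zg16 above in 6 of 16). In the colon Zg16 (508), Clca1 (470), Fcgbp (406), Tff3 (253) and Muc2 (210) all stood above Ang4 (28.6), with Zg16 above Clca1 in 9 of 16 libraries and Tff3 above Muc2 in 9 of 16. Defa24 (6.05), Lyz1 (2.04), Mmp7 (0.617) and Defa17 (0.322) followed. The full exon length was used for every gene, though 92% of the 50-base stretches of Defa17 and 28.1% of those of Defa24 also occur in other genes. Reads from such stretches may not all have been assigned. The places of both defensins in these orders, and that of Defa17 above all, are therefore uncertain.

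The regional pattern was compared with that of 25 further Paneth genes and 25 further goblet genes, lists that, like the members, were written with earlier results of these data known. Of the further Paneth genes 23 were in the table and 19 were tested. In the ileum against the duodenum 15 rose and 2 fell (median 2.23), where 17.2% of all tested genes rose and 16.6% fell. The falls were those of Habp2 (-1.77 ± 0.19) and Clps (-0.59 ± 0.19). The largest rises were those of Defa21 (7.06 ± 0.48), Defa22 (7.03 ± 0.48) and Defa34. Outside mouse 27 their duodenum medians were 0.365, 0.365 and 0 CPM, against 19.2, 20.8 and 7.52 CPM in mouse 27. These rises thus start from levels near the floor, and no fold is given for Defa34. In the colon against the ileum 16 fell and 3 rose (median -7.57), where 25.4% of all genes fell and 23.8% rose. The genes that fell most were Defa30 (-9.63 ± 0.62), Defa29 (-9.11 ± 0.60) and Defa21 (-9.01 ± 0.57). Those that rose were Mptx1 (9.28 ± 0.47), a mucosal pentraxin, Nupr1 (3.84 ± 0.20) and Copz2 (2.64 ± 0.36). The same 3 rose in the colon against the duodenum and 12 fell, where 26.8% of all genes rose and 28.3% fell. Many of the listed defensins share most of their sequence (72.9% of 50-base stretches for Defa21 and 74.9% for Defa22, largely with each other), so their values are not independent readings.

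Of the further goblet genes 24 were tested. In the colon 21 rose and 0 fell against the duodenum (median 2.07), and 21 rose and 0 fell against the ileum (median 1.24), by edgeR's test. Of all tested genes, 26.8% rose and 28.3% fell against the duodenum, and 23.8% rose and 25.4% fell against the ileum. Retnlb, a resistin-like protein of goblet cells, rose from duodenum to colon, and Guca2a, the precursor of guanylin, rose by 5.89 ± 0.35. In the duodenum Retnlb was at 0 CPM in the library of mouse 27. In the other duodenum libraries its median was 0 CPM and its highest level 0.832 CPM, so no fold is given for it. Klk1 rose by 4.26 ± 0.15 and, against the ileum, by 4.55 ± 0.16. In the ileum against the duodenum 13 rose, led by Guca2a (3.58 ± 0.32), Ccl6 (2.13 ± 0.29) and Spink4 (1.41 ± 0.27). Agr2, a disulfide isomerase needed for mucin production, fell there by 0.64 ± 0.12 on the log2 scale. In that contrast 17.2% of all tested genes rose and 16.6% fell.

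Surgery was tested next, with contrasts that share groups: VSG against S_al and S_wm against S_al use the same S_al libraries, and the 2 VSG contrasts the same VSG libraries. Averaged over the 3 regions, edgeR called 0 of the 10 genes in any of the 3 contrasts, where 0% of all genes were called for VSG against S_al, 0.245% for VSG against S_wm and 0.0529% for S_wm against S_al. For VSG against S_al, Defa24 was at -1.501 ± 0.44 (adjusted p = 0.396, edgeR), Defa17 at -1.24 ± 0.55, Lyz1 at -1.18 ± 0.40 and Ang4 at -1.08 ± 0.41. These 4 of 5 Paneth genes had an unadjusted p under 0.05, where 5.53% of all genes did, while Mmp7 was at 0.36 ± 0.34. Leaving out mouse 32, an S_al mouse, moved 3 of these 4 values by over 1.5 times. Defa24 was then at -0.64 ± 0.42, Lyz1 at -0.34 ± 0.40, Defa17 at -0.22 ± 1.35 and Ang4 at -0.89 ± 0.43, and 1 of the 10 genes had an unadjusted p under 0.05. These averages weigh the colon equally although its Paneth counts were few, and in Defa17 a colon group with no count enters them. Of the goblet genes 0 had an unadjusted p under 0.05 in the 3 averaged contrasts, and for VSG against S_al the intervals ran, for example, from -0.93 to 0.22 for Clca1 and from -0.79 to 0.45 for Zg16. For VSG against S_wm, Defa24 (-1.05 ± 0.48) and Mmp7 (0.90 ± 0.42) had an unadjusted p under 0.05, where 9.92% of all genes did. Without the duodenum library of mouse 27 Defa24 and Mmp7 were at -0.62 and 1.13. DESeq2 and voom with a random block for the mouse each called 0 of the 10 genes in these averaged contrasts. The share of all genes that these 2 fits called there is not given here.

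In the duodenum, VSG against S_wm gave the only call, Defa17 at -2.67 ± 0.52 (adjusted p = 0.0133), 1 of 10 genes, where 0.212% of all genes were called lower after VSG. Its 5 S_wm libraries were at 2.74, 7.99, 12.0, 12.3 and 32.1 CPM, the last being mouse 27, and the 6 VSG libraries at 1.25, 1.41, 1.92, 2.38, 2.40 and 3.28 CPM. A single S_wm library, of mouse 29, overlapped the VSG range. The 5 S_al libraries, at 1.41, 2.36, 2.55, 5.21 and 8.89 CPM, spanned both. The other 4 Paneth genes were lower too without passing: Ang4 at -2.64 ± 0.75 (adjusted p = 0.107), Lyz1 at -2.31 ± 0.61 (adjusted p = 0.0763), Defa24 at -2.24 ± 0.63 (adjusted p = 0.102) and Mmp7 at -0.93 ± 0.42 (adjusted p = 0.473). DESeq2 called Defa17, Ang4, Defa24 and Lyz1, 4 of 10 genes, where it called 1.43% of all genes. For Lyz1 the S_wm libraries were at 84.7, 142, 246, 309 and 1486 CPM and the VSG libraries at 44.2, 70.0, 77.4, 97.2, 120 and 142 CPM, so that 2 of the 5 S_wm libraries lay within the VSG range or at its edge. For Ang4 the S_wm libraries were at 3.83, 7.79, 15.9, 22.9 and 92.9 CPM and the VSG libraries at 1.80, 2.17, 4.29, 4.86, 5.04 and 9.59 CPM. Among goblet genes, Zg16 was at -1.35 ± 0.53 (adjusted p = 0.35), Clca1 at -1.26 ± 0.50 (adjusted p = 0.347) and Muc2 at -0.84 ± 0.49.

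The Defa17 call did not hold without the duodenum library of mouse 27, where it was -2.07 ± 0.50 (adjusted p = 0.449, edgeR) and no gene of the whole table was called. Lyz1 was then at -1.10 ± 0.54, Ang4 at -1.47 ± 0.75, Defa24 at -0.95 ± 0.56, Mmp7 at -0.22 ± 0.39, Clca1 at -0.55 ± 0.49, Zg16 at -0.43 ± 0.51 and Muc2 at -0.06 ± 0.49. With a random block for the mouse (voom) Defa17 had an adjusted p of 0.181, with only the duodenum libraries 0.193, with no filter on low counts 0.0623, and the call was also lost without mouse 11, 18, 25 or 30. In the library of mouse 27, all 5 Paneth genes and 4 of the 5 goblet genes were the highest of the 16 duodenum libraries. Ang4 was 18.5 times the median of the other 15 (92.9 against 5.04 CPM), Defa24 17.2 times, Lyz1 15.3 times, Defa17 12.6 times and Mmp7 5.51 times, and Zg16 was 6.72 times, Muc2 5.42 times, Clca1 5.01 times and Fcgbp 1.5 times, while Tff3 (218 CPM, 1.16 times) ranked 6 of 16.

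Markers of other cells moved in the same library. All 12 enteroendocrine genes were lowest of the 16 duodenum libraries in it, and Neurod1 was at 142 CPM against a median of 670 CPM in the others. All 10 enterocyte genes were highest, summing to 49760 CPM against 6331 to 17270 CPM, and 8 immune genes summed to 1877 CPM against 23.7 to 635 CPM. The 8 acinar genes summed to 0 CPM, and 7 stromal genes to 6.21 CPM against 9.85 to 23.2 CPM. The library's own total, 11233615 counts, was within the range of the series. The part of these cell types in the VSG contrast was not tested. Of the further Paneth genes, 3 of 19 fell by edgeR for VSG against S_wm in the duodenum, where 0.212% of all genes did. They were Itln1 (-2.40 ± 0.54, adjusted p = 0.0463), an intelectin of Paneth and goblet cells, Defa29 (-3.08 ± 0.68, adjusted p = 0.0418) and Defa34. Defa34 was at 7.52 CPM in the library of mouse 27 and at most 0.584 CPM in the other 15, so no fold is given. The enterocyte gene Fabp2 (-2.36 ± 0.53, adjusted p = 0.0463, edgeR) was called as well. For VSG against S_wm in the average of the 3 regions, Sis, the sucrase-isomaltase of enterocytes, was called (-0.66 ± 0.14, adjusted p = 0.0153, edgeR). In that average 0.245% of all genes were called. Sis was at 3650 CPM in the library of mouse 27, an S_wm mouse, and at most 2484 CPM in the other 15 duodenum libraries. Its value in the average without that library is not given here.

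**Figure D3:**
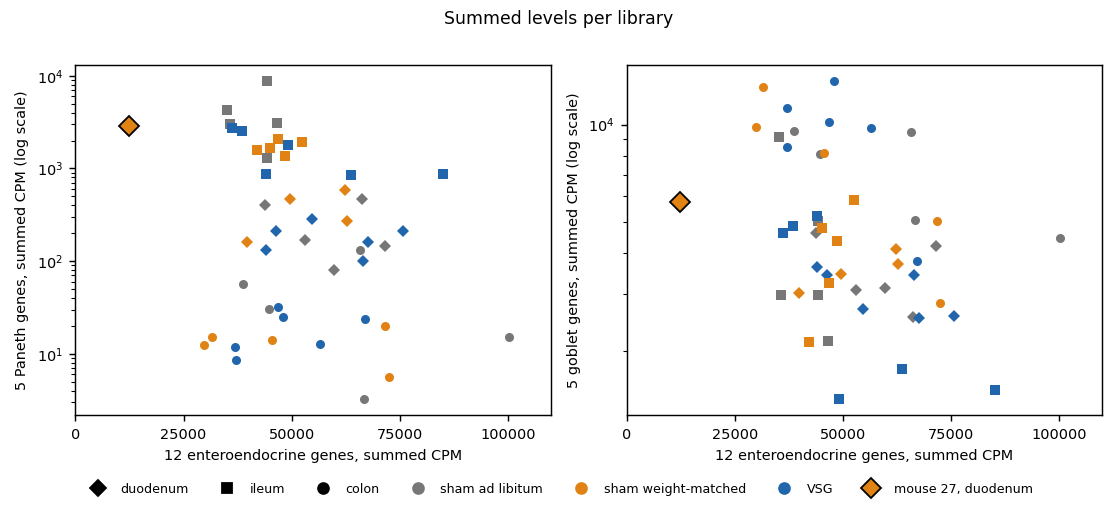
Summed CPM of the 5 Paneth genes (left) and the 5 goblet genes (right) on a log vertical axis, against summed CPM of 12 enteroendocrine genes on a linear axis, for the 48 libraries by region (shape) and surgery group (colour). The duodenum library of mouse 27 lies far to the left, at 12280 CPM of enteroendocrine genes and 2864 CPM of Paneth genes.

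In the other duodenum contrasts edgeR called 0 of the 10 genes, where 0% of all genes were called in each. S_wm against S_al was positive for all 5 Paneth genes. Each had an unadjusted p under 0.05, where 6.55% of all genes did, and the adjusted p ran from 0.533 to 0.624 (edgeR). The log2 fold changes ran from 1.505 ± 0.45 for Mmp7 to 2.01 ± 0.77 for Ang4. Without the library of mouse 27 these values were 0.79 ± 0.41 and 0.84 ± 0.76, and Defa24 moved from 1.68 to 0.38. VSG against S_al ran from -0.93 ± 0.53 for Defa17 to 0.58 ± 0.43 for Mmp7, and 0 of the 10 genes had an unadjusted p under 0.05, where 2.45% of all genes did.

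In the ileum the Paneth genes had higher medians in S_al libraries than in the other groups, and 0 differences passed the threshold. The 5 S_al libraries had summed Paneth levels from 1281 to 8888 CPM (median 3093), the 5 S_wm libraries from 1353 to 2081 CPM (median 1643) and the 6 VSG libraries from 846 to 2743 CPM (median 1334), so the ranges overlapped. For Lyz1 the S_al libraries were at 688, 1598, 1757, 2469 and 4162 CPM, the S_wm libraries at 654, 906, 965, 1067 and 1164 CPM and the VSG libraries at 398, 414, 479, 964, 1276 and 1352 CPM. All but 1 of the S_al libraries were above every S_wm and VSG library. The highest S_al ileum library was that of mouse 32, with Lyz1 at 4162 CPM and Defa24 at 4169 CPM. For VSG against S_al, Defa17 was at -1.47 ± 0.47 (adjusted p = 0.519, edgeR), Ang4 at -1.40 ± 0.67, Lyz1 at -1.39 ± 0.59 and Defa24 at -1.37 ± 0.61, and Mmp7 at -0.45 ± 0.39. Without mouse 32 Defa24 was at -0.72 and Lyz1 at -1.003. S_wm against S_al ran from -1.39 ± 0.65 for Defa24 to -1.12 ± 0.42 for Mmp7, and without mouse 32 these 2 were at -0.74 and -0.75. In that contrast 3 Paneth genes had an unadjusted p under 0.05, where 7.85% of all genes did. Other marker lists stood apart in S_al ileum libraries as well, with 0 genes called: all 12 enteroendocrine genes had positive log2 fold changes for VSG against S_al (median 0.33) and for S_wm against S_al (median 0.33), and all 7 crypt and dividing cell genes had negative ones (medians -0.30 and -0.56). Summed enteroendocrine levels were 35120 to 46490 CPM in S_al, 42040 to 52460 CPM in S_wm and 36120 to 85070 CPM in VSG ileum libraries. Their part in the Paneth differences was not tested. Between VSG and S_wm, Defa24 differed by 0.02 ± 0.61 with an interval from -1.22 to 1.26. There 0 of the 10 genes had an unadjusted p under 0.05, where 6.38% of all genes did. The goblet genes had 0 unadjusted p under 0.05 in all 3 ileum contrasts. Called were 0 of the 10 genes in each, where 0%, 0.0463% and 0% of all genes were called for VSG against S_al, VSG against S_wm and S_wm against S_al.

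In the colon, edgeR called 0 of the 10 genes in each contrast, where 0%, 0.0595% and 0.0132% of all genes were called in the same order. Except for Ang4, Paneth counts were few there, which limits what difference between groups was detectable at this depth: over the 16 libraries Lyz1 had 224 counts, Defa24 220, Mmp7 61 and Defa17 10. The S_al library of mouse 32 held 93 of the counts of Lyz1 and 93 of those of Defa24, both at 21.1 CPM against at most 2.69 and 3.31 CPM in the other 15. Mmp7 was at 0 CPM in 3 of 5 S_wm libraries and at 0.288 and 0.372 CPM in the others, against 0.109 to 1.83 CPM in the 6 VSG libraries. Ang4 had 2376 counts, with 127 CPM in the S_al library of mouse 13 and 1.64 to 30.9 CPM in the other 15. Unadjusted p under 0.05 were found for 1 gene in each contrast, Defa24 for VSG against S_al, Mmp7 for VSG against S_wm and Ang4 for S_wm against S_al. The shares of all genes were 6.28%, 3.65% and 3.66% in that order. Defa24 was at -2.57 ± 0.99 and, without mouse 32, at -0.93, and Ang4 at -1.83 ± 0.76 and, without mouse 13, at -0.35. The goblet genes had more counts behind them (154021 for Muc2), and their differences after VSG against S_al ran from 0.03 ± 0.49 for Clca1 to 0.67 ± 0.40 for Tff3, all positive and without an unadjusted p under 0.05. Muc2 was between 801 and 1874 CPM in S_al, 725 and 1981 CPM in S_wm and 1152 and 2800 CPM in VSG colon libraries.

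**Figure D4:**
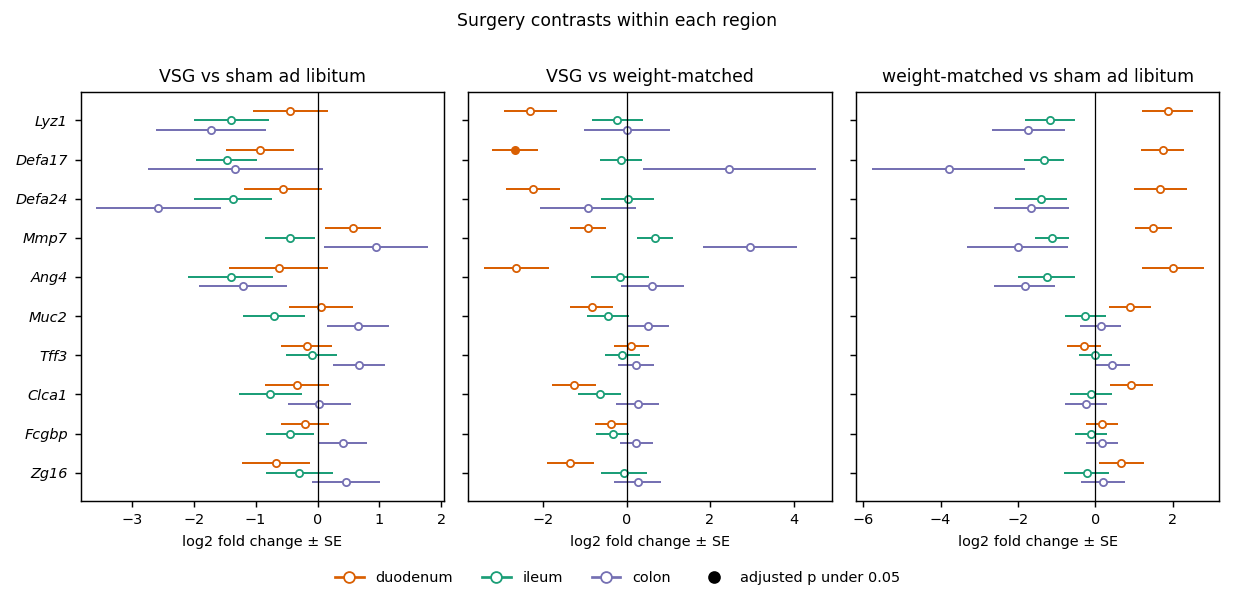
Log2 fold changes between surgery groups in each region, with SE; the filled point is the only one with an adjusted p under 0.05, Defa17 in the duodenum for VSG against S_wm (-2.67). In the right panel the Paneth genes lie right of 0 in the duodenum (1.505 to 2.01) and left of 0 in the ileum (-1.39 to -1.12).

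The difference of surgery effects between regions was tested jointly. By edgeR 0 of the 10 genes and 0% of all genes passed. All 5 Paneth genes had an unadjusted p under 0.05, from 0.000291 for Mmp7 to 0.00872 for Defa24 (adjusted p 0.914 or more, edgeR), and 0 of the goblet genes did. Of all tested genes, 4.9% had an unadjusted p under 0.05 in this joint test. DESeq2 called Mmp7 (adjusted p = 0.0257) and Defa17 (adjusted p = 0.0316), where it called 0.0661% of all genes. Without the duodenum library of mouse 27, edgeR's unadjusted p was 0.00289 for Mmp7 and 0.0039 for Defa17, with adjusted p of 0.851 and 0.87, and it was over 0.1 for Lyz1, Defa24 and Ang4.

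Within groups, genes of each set varied together from library to library. Deviations of log2 CPM from the group mean were correlated between pairs of genes, as a description without a test, since all pairs share their libraries and depths. The 10 pairs of Paneth genes had a mean Pearson r of 0.79 over the 32 small intestinal libraries, from 0.56 (Mmp7 with Ang4) to 0.95 (Lyz1 with Defa24). The 10 pairs of goblet genes had a mean r of 0.73 over all 48 libraries, from 0.43 to 0.88. Across the sets the mean r of 25 pairs in the small intestine was 0.29, from -0.01 to 0.51, and without the duodenum library of mouse 27 and the ileum and colon libraries of mouse 12 it was 0.13, while the means within sets were 0.72 and 0.71. In the 16 colon libraries Tff3 and Zg16 had r of 0.97 and Fcgbp and Clca1 0.94, whereas Muc2 was at 0.26 with Clca1 and 0.42 with Fcgbp. Mean deviations of the same mouse in duodenum and ileum had r of -0.11 for the Paneth genes and 0.27 for the goblet genes over 15 mice, and those of the goblet genes had r of 0.58 between duodenum and colon (15 mice) and 0.03 between ileum and colon (16 mice).

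**Figure D5:**
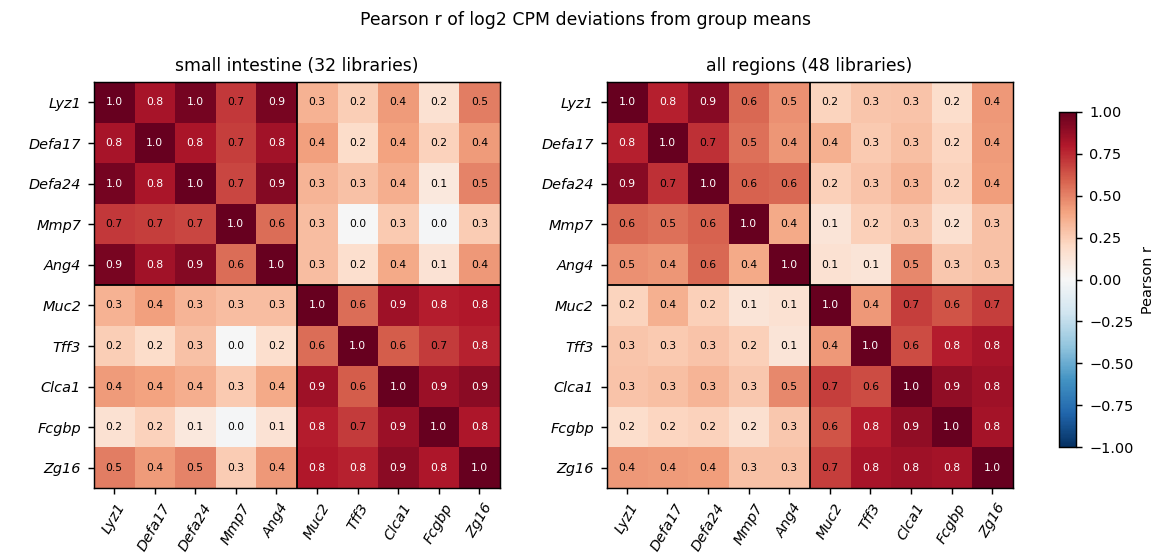
Pearson r between the 10 genes of log2 CPM deviations from group means, in the 32 small intestinal libraries (left) and all 48 libraries (right); lines separate Paneth from goblet genes. In the left panel the Paneth block averages 0.79 and the block between the sets 0.29.

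The tested genes whose deviations most resembled the mean of the Paneth genes in the 32 small intestinal libraries were Itln1 (r = 0.98), Gm14851 (0.94), Defa21 (0.91), AY761184 (0.91) and Defa30 (0.90), all of the list of further Paneth genes. Those most like the mean of the goblet genes in 48 libraries were Fer1l6 (0.87), Capn9 (0.84), Dhrs11 (0.83), Ifngr2 (0.83) and Dpep1 (0.83), of which only Capn9 was on the goblet list.

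The promoters of 3 of the 10 genes are shown, from RefSeq (GRCm38.p6), 250 bases before to 50 bases after the start site. An entry was found there for 5 of the 10 genes. Whether promoter letters have a part in the joint variation of the genes was not tested. Those of Lyz1, Mmp7 and Muc2 were chosen after the matches were known. Of the others, Fcgbp holds CAGCTG at -208 and Ang4 holds none of the motifs below, and a second Mmp7 promoter entry, which starts farther downstream, holds CTTTGA at -246 and is not shown. Letters searched on both strands were TATAAA, the core of a TATA box, then CTTTGA, a core read by Tcf factors of the Wnt pathway, and lastly CAGCTG, an E-box form. No letters were shared by matches of different motifs in the promoters shown, and matches are in capitals. Of 32851 promoters of this length, 13.6% hold TATAAA, 16% CTTTGA and 16.3% CAGCTG. Lyz1 lies at chr10:117292819-117293118 (minus strand), Mmp7 at chr9:7691840-7692139 and Muc2 at chr7:141690090-141690389 (both plus strand).
Lyz1: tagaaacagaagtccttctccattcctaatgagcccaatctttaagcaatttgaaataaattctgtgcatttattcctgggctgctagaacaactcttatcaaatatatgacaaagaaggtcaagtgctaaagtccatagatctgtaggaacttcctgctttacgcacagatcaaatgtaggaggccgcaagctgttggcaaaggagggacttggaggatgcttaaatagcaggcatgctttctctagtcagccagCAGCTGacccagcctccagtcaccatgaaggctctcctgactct
Mmp7: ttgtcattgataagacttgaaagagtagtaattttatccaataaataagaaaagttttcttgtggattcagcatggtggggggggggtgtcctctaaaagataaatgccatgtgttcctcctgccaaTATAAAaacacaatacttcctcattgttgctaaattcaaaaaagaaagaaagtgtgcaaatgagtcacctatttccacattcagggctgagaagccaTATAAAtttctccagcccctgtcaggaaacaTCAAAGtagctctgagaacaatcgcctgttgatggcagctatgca
Muc2: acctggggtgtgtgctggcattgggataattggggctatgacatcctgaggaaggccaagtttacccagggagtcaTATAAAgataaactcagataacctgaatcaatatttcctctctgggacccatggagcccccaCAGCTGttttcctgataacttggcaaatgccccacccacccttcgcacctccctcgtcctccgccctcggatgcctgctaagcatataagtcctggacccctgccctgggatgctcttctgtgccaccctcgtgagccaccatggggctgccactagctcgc
Lyz1 holds CAGCTG 7 bases after its start. Mmp7 holds TATAAA at -123 and -26, and CTTTGA on the minus strand at 6, where it reads TCAAAG on the printed strand. Muc2 holds TATAAA at -174 and CAGCTG at -112. Each match is a description of the letters only.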

How the data were processed

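RNA from FACS-sorted cells of 48 mouse tissue samples was sequenced by the authors after library preparation from 2 ng with a stranded total RNA kit (single-end reads of 50 bases). The authors aligned the reads to GRCm38 with STAR 2.5.1 and deposited raw counts per Ensembl gene, unnormalised and unpooled; the submitters' processing notes also name CASAVA. The strand setting of the counting and its treatment of multiply matched reads are not given in the sources used here. Groups were taken from the labels for tissue and condition, and the mouse number from the description. Libraries held 4648651 to 17182463 counts. For depth, no interval on a share was used. Within a region the replicates were separate mice, so contrasts there measure the spread between mice. The main fit had no mouse term. Contrasts between regions, averages over regions and the interaction therefore treat libraries of the same mouse as independent. The voom fit with a random block estimated a correlation of 0.128 within a mouse.

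Counts were tested in R 4.3.3 with edgeR 4.0.16 (quasi-likelihood, filterByExpr, TMM, 1 mean for each of 9 groups, robust), two-sided, with Benjamini-Hochberg adjustment over 15126 genes and a threshold of 0.05. The SE was derived from the log2 fold change and its F statistic. Alternatives were DESeq2 1.42.0 and its size factors, other filters on low counts, voom in limma 3.58.1 with a random block for each mouse, a fixed mouse block, the second library index, single regions, and leaving out mice or libraries. The scripts were tested on simulated data. The 10 genes and the gene lists were chosen with earlier results of these data known. Named beside the members were up to 3 called genes per list and direction in each regional contrast (largest fold changes), list genes called in a surgery contrast, and the 5 genes most like each set. Gene models matched 53360 of 53465 genes (GENCODE M21).

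Mouse numbers were checked as pairs over 2000 genes: deviations of the 46 library pairs of the same mouse had a median correlation of 0.105 (-0.0201 to 0.389), and the libraries of 1 number come from 1 mouse by the description code. No pair of libraries of 1 group agreed within sampling noise (lowest chi-square per gene 8.78 over 105 pairs).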

Additional observations from a re-analysis of the deposited data

Results flagged for a closer look

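Dixon's 95% critical value assumes normally distributed and independent readings. Here CPM was searched without a log scale and the genes varied together, so no chance rate is set beside the count. In groups of 5 or 6 libraries, 13 of 82 gene and group combinations had a highest library farther from the rest than that value. Of these, 7 were the S_wm duodenum library of mouse 27: Lyz1 at 1486, Defa24 at 1206, Mmp7 at 46.54, Ang4 at 92.93, Muc2 at 127.2, Clca1 at 404.4 and Zg16 at 487.9 CPM. In that library the 12 enteroendocrine genes summed to 12280 CPM and the enterocyte genes to 49760 CPM; their part in the values was not tested. Mouse 32 (S_al) stood apart in 3 regions, with Lyz1 at 21.08 and Defa24 at 21.08 CPM in the colon, Defa24 at 4169 CPM in the ileum and Muc2 at 61.35 CPM in the duodenum. The S_al colon library of mouse 13 had Ang4 at 127.3 CPM, and the VSG duodenum library of mouse 28 had Muc2 at 52.51 CPM.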

How the results depend on the processing

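Over all alternatives, 3599 of 3764 fold changes of single genes kept their direction and their side of the threshold, 37 lost a call, 20 gained one, and 108 changed sign, in 0 of which either fit called the gene. Of the 10 genes, 8 were called for ileum against duodenum, where 17.2% of all genes were called higher and 16.6% lower. With the library index as a covariate 3 were called, and within index D501 0, where fewer libraries were compared. Both of these fits kept the duodenum library of mouse 27. The cause of the drop with the covariate was not tested. For VSG against S_wm in the duodenum, 1 gene was called by edgeR, where 0.212% of all genes were called lower after VSG, and 4 by DESeq2. The count was 0 with no filter on low counts, with the mouse as a replicate block (voom), without the duodenum library of mouse 27, or with only the duodenum libraries. Leaving out 1 mouse at a time gave 0 to 3 called genes: 0 without mouse 11, 18, 25, 27 or 30, and 3 without mouse 29 or 32. The share of all genes called in those fits is not given here, so these counts are not weighed against it. For the interaction of surgery and region, edgeR called 0 of the 10 genes and 0% of all genes, and DESeq2 called 2 of the 10. For colon against duodenum 8 members were called, where 26.8% of all genes were called higher and 28.3% lower. For colon against ileum 9 were called, where 23.8% of all genes were called higher and 25.4% lower. Both counts of called members stayed within 1.5 times under every alternative run. The mean correlation between Paneth and goblet genes moved from 0.29 to 0.13 without 3 libraries (mouse 27 duodenum, mouse 12 ileum and mouse 12 colon). Few counts in the colon limit Defa17, Mmp7, Lyz1 and Defa24 there.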
